A study of Mus musculus with 2 samples.

Results

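The replication-dependent histone genes were described in 2 single-cell RNA libraries of mouse knee joints. The genes were taken by symbol, as every measured gene whose name starts with Hist1h, Hist2h, Hist3h or Hist4h, which gave 67 of the 32245 genes in both tables. They comprise 6 linker histone H1 genes, 18 H2A genes, 18 H2B genes, 12 H3 genes and 13 H4 genes. Both libraries came from female mice aged 1 month, each from the pooled knee joints of 2 to 3 animals, sorted for live cells without CD31, Ter119 or CD45. The control mice were Stat3fl/fl, with loxP sites at both copies of Stat3. The mutant mice were Acan-Cre+/Cre;Stat3fl/fl and carry the same floxed alleles together with 1 copy of a tamoxifen-dependent Cre placed at the aggrecan gene Acan, which is active mainly in chondrocytes, the cells of cartilage. In the study, deletion was induced by tamoxifen soon after birth. Because each genotype is a single library, the differences below cannot be set against a spread between replicates, no test was run, and 95% intervals cover counting error only.

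Replication-dependent histone genes supply the proteins that wrap newly copied DNA. An octamer of H2A, H2B, H3 and H4 forms the core of a nucleosome, and H1 binds the DNA that links one nucleosome to the next. The genes lie in clusters, have no introns in their classical form, and are transcribed mainly in S phase under control of the coactivator Npat. Their mRNAs end in a conserved stem-loop instead of a poly(A) tail, which Slbp binds and the U7 ribonucleoprotein helps to process. Some members also give polyadenylated transcripts, in particular in cells that have left the cell cycle or are differentiating. The droplet kit used here primes on poly(A), so the values count the molecules of each gene that could be captured in that way. Erythroid precursors in bone marrow divide rapidly while their nuclei condense, and they are among the cells in which histone mRNA is plentiful.

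The stem-loop is shown first because it is the feature by which these mRNAs are known. In the Gencode M21 annotation of GRCm38, 54 members lie in the Hist1 cluster on chromosome 13 from 21715763 to 23934851 and 10 in the Hist2 cluster on chromosome 3 from 96219865 to 96270132. A further 2 lie in the Hist3 cluster on chromosome 11 from 58948920 to 58956830, and Hist4h4 lies on chromosome 6 from 136801553 to 136804415. A 16-base stem-loop pattern, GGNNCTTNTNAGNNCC, was found after the stop codon in the annotated transcript of 45 of 67 members. The same pattern was present in 0.355% of 58797 protein-coding transcripts on the sense strand and in 0.236% on the antisense strand. The 45 members used 8 distinct sequences, of which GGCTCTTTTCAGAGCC occurred in 25 members, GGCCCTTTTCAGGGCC in 7 and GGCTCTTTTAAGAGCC in 6. The loops of the members that the results turn on are printed with up to 5 flanking bases, and capitals mark the stem-loop.
Hist1h2ap: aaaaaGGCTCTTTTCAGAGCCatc
Hist1h2ae: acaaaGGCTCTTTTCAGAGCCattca
Hist2h2aa1: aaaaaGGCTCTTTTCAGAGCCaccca
Hist1h1c: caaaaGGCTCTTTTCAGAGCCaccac
Hist1h1e: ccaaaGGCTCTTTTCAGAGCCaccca
Hist1h3c: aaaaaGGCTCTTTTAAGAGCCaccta
Hist1h4i: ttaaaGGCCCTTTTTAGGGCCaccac

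The annotated transcript ran on beyond this element to different lengths. It ended within 100 bases of the stem-loop in 22 members and further away in 23 members. Hist1h2ap, an H2A gene on the minus strand of chromosome 13 from 21833026 to 21833507, ended 3 bases after the loop. Hist1h1c, an H1 gene on the plus strand of chromosome 13 from 23738808 to 23740367, continued for 840 bases and held an AATAAA or ATTAAA polyadenylation hexamer. Hist1h1e continued for 1153 bases without such a hexamer. For Hist1h2bc, on the plus strand of chromosome 13 from 23684199 to 23692908, the longest annotated coding transcript held no stem-loop and did hold a hexamer. A hexamer after the stop codon was present in 22 of 67 members. Counts of near-identical members are uncertain, because 33 members shared over 50% of the 50-base stretches in the last 300 bases of their transcript with another member. Hist1h2ap held 42.8% of all member UMIs and shared 100% of these stretches with other members, as did Hist2h2aa1, Hist1h1e, Hist1h2br and Hist1h3f. Hist1h1e also overlaps Hist1h2be and Gm11398, so part of its reads cannot be assigned with certainty.

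The promoters of the members differed by family. Of the 67 members, 61 matched 1 promoter entry of RefSeq on GRCm38.p6, covering 250 bases before to 50 bases after the start. The octamer ATTTGCAT, sought on both strands, was present in 7 of 17 H2A promoters, 7 of 16 H2B promoters and in none of 6 H1, 10 H3 and 12 H4 promoters, against 1.97% of 27025 genes. The CCAAT pentamer was present in 52 of 61 member promoters against 41.1% of all genes, with 3 of 12 for H4 and every promoter of the other families. TATAAA was present in 35 of 61 against 15.7%. The octamers of 4 H2B genes are printed as examples, with capitals for the octamer and the distance to the annotated start after the gene. The element recurs in H2A as well as in H2B. Neighbouring H2A and H2B genes on opposite strands, such as Hist1h2ae and Hist1h2bg, can share an octamer in their windows, so the counts of these families are not independent. These matches describe letters in a window and say nothing of binding.
Hist1h2bb, 82 bases before the start: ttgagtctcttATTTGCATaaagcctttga
Hist1h2be, 59 bases before the start: agtaagacttaATTTGCATaagactgccta
Hist1h2bg, 51 bases before the start: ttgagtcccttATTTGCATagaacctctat
Hist1h2bm, 17 bases before the start: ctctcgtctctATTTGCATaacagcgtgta

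Levels were read as estimated UMIs, that is unique molecular identifiers recovered from the deposited log2 values, summed over the cells of a class and given per 1000000 UMIs of those cells (CPM). A UMI marks 1 captured molecule, so levels were not divided by transcript length. There were 4903 control and 1340 mutant cells, with median depths of 4344 and 3743 estimated UMIs, and 2 cell barcodes occurred in both libraries. The erythroid gate, Slc4a1 and Alas2 above 0, took 766 control and 9 mutant cells. The text mark of the study, given to cells with Sox9 and Col2a1, took 501 control and 332 mutant chondrocytes, of which 1 control cell also met the erythroid gate and was left out when those classes were compared. The pair of genes in each gate is high in its class by construction. Outside the pair, all 6 erythroid and all 6 chondrocyte markers were at least 2-fold higher in their class than in the other cells of the same library. For the other gated classes described below this held for every marker outside the pair except Htra1 in synovial lining cells of both libraries and Cspg4 in mutant mural cells. Globin values above 0 occurred in 3713 of 4903 control cells and in 113 of 1340 mutant cells, so genotypes were compared in cells without a globin value. Scrublet called 71 control cells (1.45%) and 3 mutant cells (0.224%) as doublets, 25 of them among the control erythroid cells, and they were kept. Stat3, the targeted gene, was at 142 CPM in control and 103 CPM in mutant marked chondrocytes, 3′ values that cannot tell transcripts with the floxed exons from those without.

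All members were measured above 0 in at least 1 cell. Over both tables they held 442403 estimated UMIs, of which 430187 were in the control library and 12215 in the mutant library. Of the 67 genes, 66 were above 0 somewhere in control cells and 64 in mutant cells. The 55 members with at least 200 estimated UMIs are named below, and the other 12 held between 1.0 and 189.8 estimated UMIs each.

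The histone genes were far higher in control erythroid cells than in control marked chondrocytes. Summed over the members, the level was 32129.5 CPM in erythroid cells and 1166 CPM in marked chondrocytes, a 27.5-fold difference and a log2 ratio of 4.78 (4.74 to 4.83). Per cell, the erythroid values ran from 213 to 137908 CPM with a median of 31869 CPM. The marked chondrocytes ran from 0 to 44319 CPM with a median of 603 CPM. The ranges overlapped at both ends, but few marked chondrocytes came near the erythroid median. At least 10000 CPM, which is 1% of a cell's UMIs, came from the members in 595 of 766 erythroid cells (77.7%, 74.6% to 80.6%) and in 8 of 500 marked chondrocytes (1.6%, 0.693% to 3.13%). This limit was set after the values were seen, and 129 erythroid cells and 9 marked chondrocytes lay between 5000 and 20000 CPM.

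Members were compared against a 2-fold limit where they reached 10 CPM in either class, which 56 of 67 did. All 56 were at least 2-fold higher in erythroid cells, against 26.7% of 9062 genes that passed the same filter, and 34.2% of those genes were at least 2-fold lower. The median log2 ratio of the 56 members was 4.57, and that of all 9062 genes was -0.04. A member can pass the filter through the erythroid cells alone, so the count leaves out 11 members that were below 10 CPM in both classes. Of the 56, 40 were below 10 CPM in marked chondrocytes, and the 16 at 10 CPM or more in both classes had a median log2 ratio of 4.29. The median log2 ratio of the 5380 genes at 10 CPM or more in both classes was 0.19, and relative to that shift the summed members were at 4.59. The family that differed most was H3, with a log2 ratio of 5.57 (5.41 to 5.77), followed by H2A at 5.44 (5.37 to 5.53), H4 at 4.91 (4.75 to 5.12), H2B at 4.59 (4.47 to 4.72) and H1 at 2.91 (2.83 to 3.0). The H1 family accordingly made up 9.55% of member UMIs in erythroid cells and 34.9% in marked chondrocytes, whereas H2A made up 57.0% and 36.0%. Members whose transcript ends near the stem-loop were higher by a log2 ratio of 5.42 (5.34 to 5.50), those that extend further by 3.92 (3.85 to 4.0), and those with no stem-loop in the annotated transcript by 4.53 (4.42 to 4.65). These sums follow the most abundant members. The median ratios of the members past the filter lay closer together, at 4.88, 4.55 and 4.41, and without Hist1h2ap the sum of the first group had a ratio of 5.10 (4.99 to 5.22).

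Among the linker histones, Hist1h1b stood highest in erythroid cells. It was at 969 CPM there and at 39.4 CPM in marked chondrocytes, with a log2 ratio of 4.59 (4.36 to 4.90). Hist1h1e followed with 929.5 and 213 CPM, and its log2 ratio of 2.12 (2.0 to 2.25) was small for a member. Hist1h1c, known as a linker histone that is also made outside S phase, had 309 CPM in erythroid cells and 118 CPM in marked chondrocytes. Its log2 ratio of 1.38 (1.22 to 1.56) was the lowest of the 56 members. Hist1h1a was at 548 and 6.43 CPM, and Hist1h1d at 312 and 28.6 CPM. The H1 genes therefore ranged from a 2.61-fold to a 73.9-fold difference. The testis-type gene Hist1h1t, the remaining H1 gene, held 13.2 estimated UMIs in all.

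The H2A family was carried by Hist1h2ap, which was at 12899 CPM in erythroid cells and 262 CPM in marked chondrocytes, a log2 ratio of 5.61 (5.52 to 5.72). It was above 0 in 720 of 766 erythroid cells. Its neighbour Hist1h2ao, which shares 88.8% of the end of its transcript with other members, held only 21 estimated UMIs over both tables, and how reads were split between them is uncertain. Hist1h2ae was at 3190.5 and 39.9 CPM, a log2 ratio of 6.29 (6.06 to 6.59). Hist2h2aa1, from the Hist2 cluster, was at 989 and 63.2 CPM, a log2 ratio of 3.95 (3.76 to 4.19). Its near-identical copy Hist2h2aa2 held 4.0 estimated UMIs. The other H2A genes were lower. In erythroid cells Hist1h2ab stood at 405 CPM, Hist1h2ad at 218 CPM, Hist1h2ak at 176 CPM and Hist2h2ac at 139 CPM. Hist1h2ac, Hist1h2ai and Hist1h2an followed at 79.7, 76.9 and 63.8 CPM. Hist2h2ab at 20.4 CPM and Hist1h2ag at 17.4 CPM were the lowest of the named H2A genes. In marked chondrocytes these 9 genes lay between 0.661 and 16 CPM, with Hist1h2ac highest and Hist1h2ag lowest. Hist1h2ac had the smallest ratio of the 13 H2A genes past the filter, 2.25 (1.88 to 2.77).

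The H2B family was led by Hist1h2br at 1495 CPM in erythroid cells and 18.9 CPM in marked chondrocytes, a log2 ratio of 6.23 (5.93 to 6.70). Hist1h2bq shares its transcript end and held 7.0 estimated UMIs. Hist1h2bc stood apart from the rest of the family, with 726 CPM in erythroid cells and 124 CPM in marked chondrocytes, where it was the highest H2B gene. Its log2 ratio was 2.53 (2.39 to 2.7). Hist1h2bb was at 548 CPM in erythroid cells, Hist1h2bm at 438 CPM, Hist1h2bp at 277 CPM, Hist1h2bj at 191 CPM and Hist1h2bh at 144 CPM. Their levels in marked chondrocytes were between 2.35 and 6.21 CPM, so all 5 had log2 ratios between 5.43 and 6.37. Hist1h2be was at 93.5 CPM, Hist2h2bb at 84.2 CPM and Hist1h2bn at 56.1 CPM in erythroid cells. Hist3h2ba, Hist2h2be, Hist1h2bg and Hist1h2bf were at 48.5, 46.2, 43.4 and 29.1 CPM, each with under 4 estimated UMIs in marked chondrocytes. The octamer-bearing genes printed above were among both the higher and the lower members, from 548 CPM for Hist1h2bb to 43.4 CPM for Hist1h2bg. Hist1h2bk at 15.9 CPM and Hist1h2bl at 14.9 CPM were at 0 in marked chondrocytes. Against the 3 counts that a group at 0 allows, their measured erythroid levels were 16.2-fold and 15.2-fold higher. The lower limits of their log2 ratios, which also cover counting error in erythroid cells, were 3.67 and 3.58.

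The H3 genes were low in marked chondrocytes. Hist1h3c was at 1668 CPM in erythroid cells and 45.5 CPM in marked chondrocytes, a log2 ratio of 5.16 (4.96 to 5.45). Hist1h3b was at 663 and 15.9 CPM, and Hist1h3f at 558 and 9.74 CPM. Hist1h3a had the largest log2 ratio of the 56 members, 7.41 (6.84 to 9.41), from 490.1 CPM against 1.89 CPM. Hist2h3b followed with 6.95 (6.4 to 10.23), from 243 CPM against 0.970 CPM, which rests on 2.97 estimated UMIs. Hist1h3d was at 224 CPM and Hist1h3e at 156 CPM in erythroid cells. Hist1h3g and Hist1h3i, at 44.8 and 34.3 CPM, were the lowest named H3 genes. Except for Hist1h3c, Hist1h3b and Hist1h3f, every named H3 gene was under 5 CPM in marked chondrocytes.

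The H4 genes, which encode the same protein from many loci, were more even. Hist1h4h was at 742 CPM in erythroid cells and 25.2 CPM in marked chondrocytes, a log2 ratio of 4.83 (4.56 to 5.23). Hist1h4i was at 526 and 11.7 CPM, Hist1h4d at 333 and 20.1 CPM, and Hist1h4a at 238 and 6.22 CPM. The ratio was smallest in Hist1h4c, at 3.87 (3.4 to 4.89), and Hist1h4d, at 3.99 (3.69 to 4.46). Hist1h4m was at 121 CPM, Hist1h4n at 102 CPM and Hist1h4c at 94.9 CPM in erythroid cells. Below them came Hist1h4j at 69.6 CPM and Hist2h4 at 52.0 CPM. Hist1h4b, Hist4h4, Hist1h4k and Hist1h4f closed the order at 40, 39.2, 37.4 and 28.2 CPM. All 13 H4 genes passed the filter and all were at least 2-fold higher in erythroid cells.

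**Figure D1:**
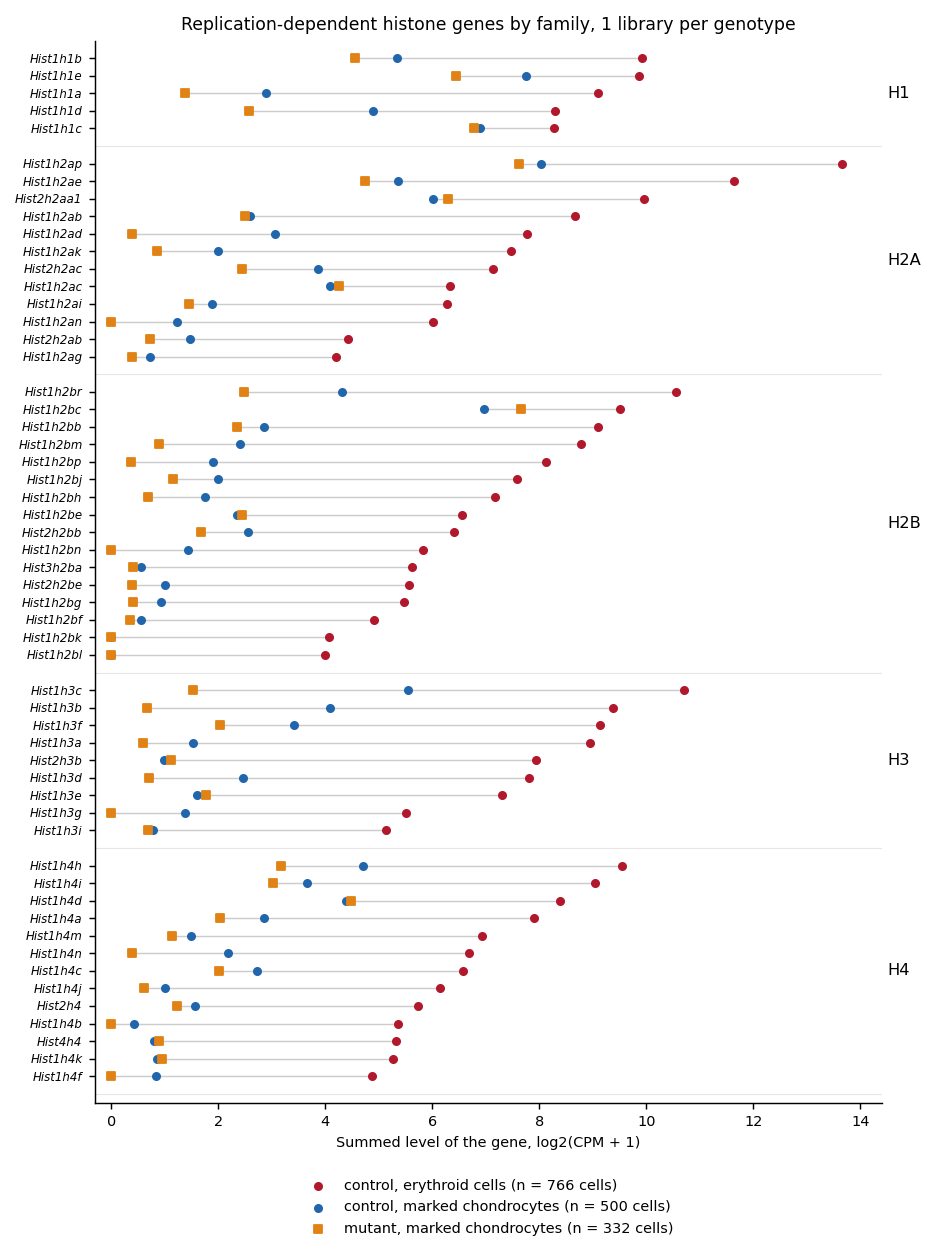
Level of the 55 named histone genes, grouped by family, on a log2(CPM + 1) axis, in which red points are control erythroid cells, blue points control marked chondrocytes and orange squares mutant marked chondrocytes. Every red point lies to the right of the blue point of its gene, by a log2 ratio from 1.38 in Hist1h1c to 7.41 in Hist1h3a, while Hist1h2bc is the H2B gene with the highest blue and orange points.

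The genes that act with the histones were described from lists chosen with earlier results of these data known. The counts of these lists stand beside 26.7% of 9062 genes at least 2-fold higher in erythroid cells and 34.2% at least 2-fold lower. A listed gene can also pass the filter through the erythroid cells alone. Many of the S-phase and G2/M genes were below 10 CPM in marked chondrocytes, such as Fen1 at 2.92 CPM and Cdk1 at 3.10 CPM. Among 43 S-phase genes, 42 were at least 2-fold higher in erythroid cells, with a summed level of 8686 CPM against 597 CPM. Among 54 G2/M genes, 53 passed the filter and 52 were at least 2-fold higher. Of 10 factors that make or process histone mRNA, 8 passed the filter and 4 were at least 2-fold higher. Slbp, which binds the stem-loop, was at 595 CPM in erythroid cells and 49.3 CPM in marked chondrocytes, a log2 ratio of 3.57. The exonuclease Eri1, the Npat-pathway protein Casp8ap2 and the cleavage factor Cpsf2 had log2 ratios of 2.47, 2.41 and 2.39. Npat itself was at 71.9 and 43.3 CPM, a log2 ratio of 0.72, and the endonuclease Cpsf3 was at 15.7 and 14.6 CPM. The summed members thus differed more than the summed factors that make or process their mRNA, which had a log2 ratio of 2.36. Slbp held 595 of the 1180 CPM of these factors in erythroid cells. Slbp and Casp8ap2 are also in the S-phase list, so the lists overlap.

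Histone chaperones, which carry new histones to DNA, were at least 2-fold higher for 8 of 10 genes, against 26.7% of all genes. Of these 8, Asf1b, Chaf1a, Chaf1b and Hat1 were below 10 CPM in marked chondrocytes and passed the filter only through the erythroid cells. Nasp, a chaperone of H1 and H3, was at 607 CPM in erythroid cells and 98.9 CPM in marked chondrocytes. Both Nasp and Chaf1b are also in the S-phase list. Asf1b had the largest log2 ratio of this list, 4.97, followed by Chaf1b at 4.31 and Chaf1a at 3.62, subunits of the assembly factor CAF-1. The importin Ipo4 was lower, at 7.77 against 44.9 CPM, a log2 ratio of -2.39. Most replacement variants are made throughout the cell cycle from polyadenylated mRNA. Of these 11 genes, 6 were at least 2-fold higher, against 26.7% of all genes. A further 4 were at least 2-fold lower, a share near the 34.2% of all genes. H2afx, the variant phosphorylated at DNA breaks, was at 230 and 17.1 CPM, and the centromere variant Cenpa, which is also in the G2/M list, at 240.0 and 19 CPM. H1fx was lower in erythroid cells, with a log2 ratio of -3.96, as were H2afy2 at -2.88 and H1f0 at -1.83. Summed, the variants were 4592 CPM in erythroid cells and 1694 CPM in marked chondrocytes, a log2 ratio of 1.44.

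Erythroid cells differed widely in their histone level, and this spread was little related to the summed S-phase and G2/M lists. Over the 766 cells, which share 1 library, the log2 level of the summed members had a Pearson r of 0.03 with the S-phase list, 0.09 with the G2/M list, 0.09 with the globins and -0.27 with the total UMIs of the cell. When the cells were split in 4 parts by the S-phase list, the members were at 34875 CPM in the lowest part and 31163.5 CPM in the highest part. Split by the G2/M list, they were at 26472 and 38864 CPM. Split by total UMIs, they were at 36092 CPM in the shallowest part and 21712 CPM in the deepest part. Split by the replacement variants, with an r of 0.19, they were at 20033 CPM in the lowest and 43735 CPM in the highest part. The members themselves rose and fell together across these cells, with r between a member and the sum of the others of 0.87 for Hist1h2ae, 0.84 for Hist1h2ap, 0.77 for Hist2h2aa1, 0.76 for Hist1h2br and 0.73 for Hist1h3c. It was lowest, at 0.16, for Hist2h2ab, a member above 0 in 10.8% of the cells.

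Among 5337 other genes above 0 in at least 10% of the erythroid cells, the 5 whose level was most alike were H2afx with r of 0.37, Hspa1b with 0.36, Hspa1a with 0.30, Esco2 with 0.24 and Ppp1r15a with 0.23. H2afx encodes a histone variant whose gene gives both stem-loop and polyadenylated mRNA, and Esco2 encodes the acetyltransferase that links sister chromatids in S phase. Hspa1a and Hspa1b, near-identical copies whose reads may be split, encode inducible heat-shock proteins, and Ppp1r15a is a stress-induced phosphatase subunit. These correlations describe cells of 1 library in sparse counts. When the cells were instead split in 4 parts by the members themselves, the members were at 3842 CPM in the lowest and 71271.5 CPM in the highest part. Pcna, the sliding clamp of DNA replication, was at 327 and 329.9 CPM in these parts, and the replication licensing gene Mcm5 at 212 and 215 CPM. Slbp was at 503 and 609 CPM. Top2a, needed to untangle DNA before mitosis, was at 714 and 1160.2 CPM, Mki67 at 2963 and 4005 CPM and H1f0 at 12.3 and 41 CPM. Cdk1 was at 67.9 and 117.6 CPM and Aurka at 77.7 and 119.6 CPM. Cdc6, at 309 and 272 CPM, and Ccnb2, at 353 and 309 CPM, were lower in the highest part. Of the other S-phase genes, Rrm2 was at 377 and 439 CPM and Ccne2 at 177 and 222 CPM. Between the lowest and highest parts, whose member levels the split itself fixed, Pcna and Mcm5 were thus nearly level, but not every cell cycle gene was. In the parts between, Mcm5 was at 197 and 247 CPM and Ccne2 at 286 and 259 CPM.

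**Figure D2:**
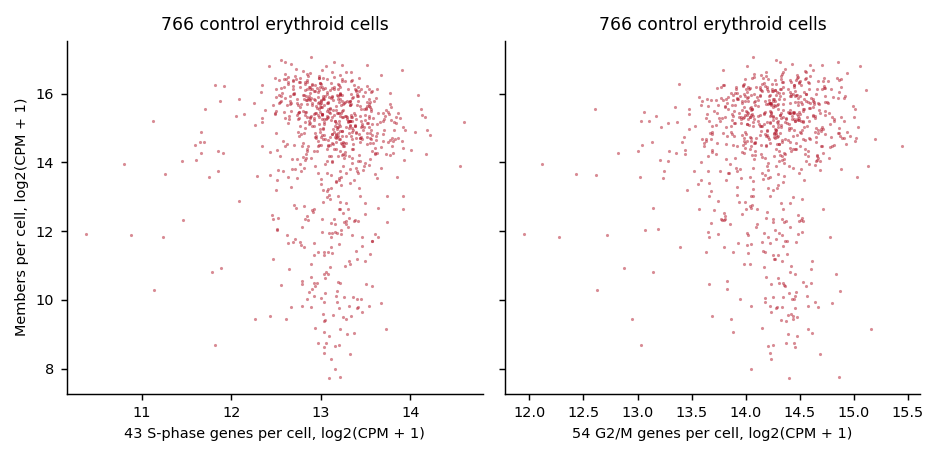
Summed histone genes per cell against 43 S-phase genes (left) and 54 G2/M genes (right) in 766 control erythroid cells, all on log2(CPM + 1) axes, 1 point per cell. The points form no rising band, with a Pearson r of 0.03 on the left and 0.09 on the right.

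The other classes of the control library, each gated by a pair of marker genes, lay below the erythroid cells, and in most of them the cells with a globin value held more. Unmarked cells with Sox9 and Col2a1, all 495 of which had a globin value, were at 3269 CPM (3194 to 3346), against 1166 CPM in the marked cells, none of which had a globin value. Their medians per cell were closer, at 765 and 603 CPM, and 33 of 495 unmarked cells reached 10000 CPM. Osteoblasts (Ibsp and Bglap) were at 2708 CPM with and 919 CPM without a globin value. Tenocytes (Tnmd and Scx) were at 5647 and 478 CPM, mural cells (Rgs5 and Notch3) at 8297 and 1037 CPM, and synovial lining cells (Prg4 and Has1) at 1221 and 349 CPM. Marrow stromal cells (Adipoq and Cxcl12) were the class that did not follow, at 3218 CPM with and 3972 CPM without a globin value. In several classes very few cells carried the sum. The 3 cells with the most member UMIs held 89.9% of them in the 35 mural cells with globin, 86.4% in the 70 tenocytes with globin and 79.4% in the 37 marrow stromal cells without.

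The makeup of the members also moved with the level. Hist1h2ap made up 45.9% of member UMIs in tenocytes with a globin value and 8.23% in those without, against 40.1% in erythroid cells. In synovial lining cells it made up 37.0% and 3.97%. The erythroid markers moved the same way, with summed levels of 190.2 and 36.8 CPM in these tenocytes and 146 and 26.5 CPM in these synovial lining cells. Fractional values, which remain after ambient removal, were more common in the control, where 74.9% of values above 0 came within 0.1 of a whole UMI against 97.3% in the mutant. How much of the histone values in other classes comes from erythroid RNA or from doublets was not tested.

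The unassigned class held most of the remaining histone RNA. Its 2560 control cells were at 23664 CPM, and 1155 of them (45.1%, 43.2% to 47.1%) reached 10000 CPM. Within it, 442 cells with Gata1 and Klf1, the transcription factors that drive red cell genes, were at 33929 CPM. The 135 cells with Gata1 and the progenitor factor Myb were at 29009 CPM. Both groups of cells had missed the erythroid gate and lay above the level of the class as a whole. The 9 mutant cells of the erythroid gate were at 23390.3 CPM and ran from 12133 to 53895 CPM per cell, inside the range of the control erythroid cells.

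**Figure D3:**
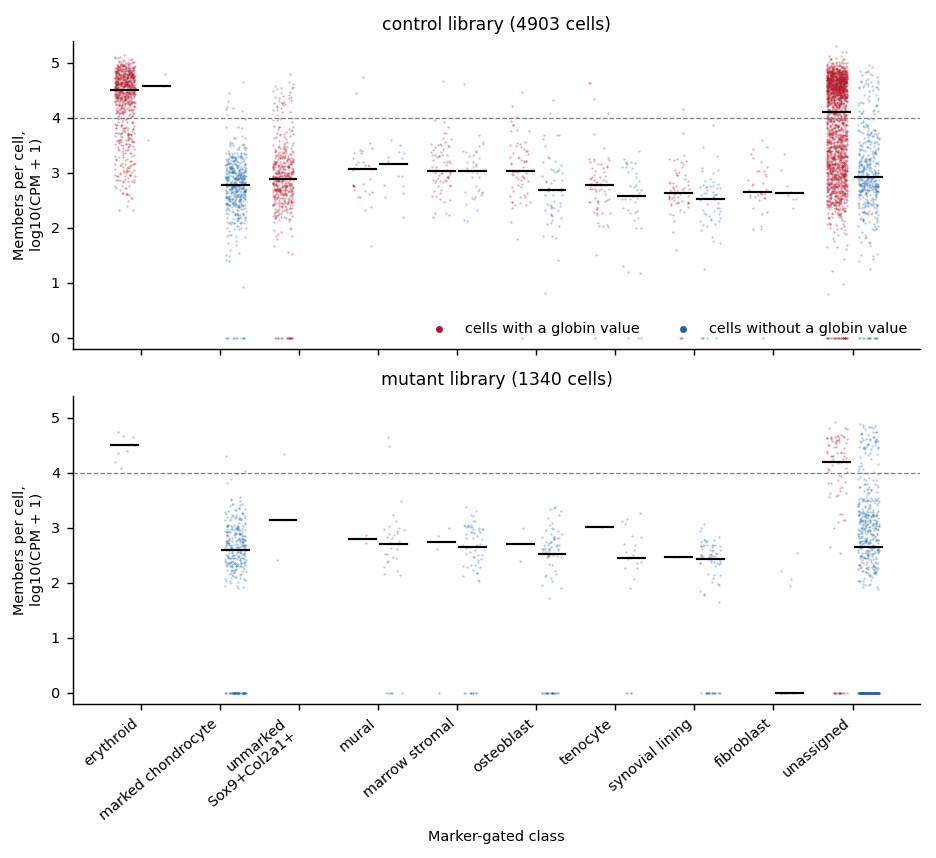
Summed histone genes of each cell on a log10(CPM + 1) axis, by marker-gated class in the control (top) and mutant (bottom) library; red cells have a globin value, blue cells have none, black bars are medians and the dashed line is 10000 CPM. The control erythroid cells have a median of 31869 CPM, the control marked chondrocytes of 603 CPM and the mutant marked chondrocytes of 391 CPM.

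Marked chondrocytes held less histone RNA in the mutant than in the control library. The level was 1176 CPM over 501 control cells and 840.0 CPM over 332 mutant cells, a log2 ratio of -0.48 (-0.56 to -0.41), and the medians per cell were 604 and 391 CPM. Of 16 members that reached 10 CPM in either library, 7 were at least 2-fold lower and none was at least 2-fold higher in the mutant, against 6.63% and 4.57% of 8117 genes. Of these 7, 6 were below 10 CPM in the mutant and passed the filter only through the control. The 9 members at 10 CPM or more in both libraries had a median log2 ratio of -0.13, beside -0.16 for the 6911 genes at that level in both, and 1 of them, Hist1h1e, was at least 2-fold lower. Relative to the shift of those genes the summed members were at -0.32. Without the 3 cells with the most member UMIs in each library, which held 23.2% and 21.5% of them, the log2 ratio was -0.45.

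Markers of other cell types also differed between these marked chondrocytes. The osteoblast list summed to 3678 CPM in control and 8561 CPM in mutant cells. Of its 6 genes, 2 were at least 2-fold higher, against 4.57% of all genes. These were Bglap at 491 and 3040.4 CPM and Ibsp at 324 and 937 CPM. The marrow stromal list was at 99.2 and 327 CPM, with 3 of 4 genes at least 2-fold higher. The mural list was at 619 and 357 CPM, with Rgs5 at 69.8 and 5.03 CPM, and the tenocyte list at 2396 and 1518 CPM. The synovial lining list was at 2761 and 2775 CPM and the fibroblast list at 1879 and 2196 CPM, while endothelial and leukocyte markers summed to under 10 CPM in both libraries. The chondrocyte list itself was at 71434 and 49058 CPM, with Acan, the locus of the Cre, at 4837 and 1697 CPM. The part of these differences in the histone values was not tested.

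The families did not move alike. H3 had the lowest ratio, -2.52 (-3.12 to -2.15), from 85.9 CPM in the control to 14.1 CPM in the mutant. H1 was at 409 and 224 CPM, a log2 ratio of -0.87 (-1.01 to -0.74), H4 at 80.3 and 47.7 CPM with -0.74 (-1.06 to -0.45), and H2A at 423 and 334 CPM with -0.34 (-0.46 to -0.22). H2B was higher in the mutant, at 220.3 against 177 CPM, a log2 ratio of 0.32 (0.15 to 0.48). Hist1h2bc alone set that direction, and without it H2B was at 19.4 CPM in the mutant against 51.8 CPM in the control, a log2 ratio of -1.37 (-1.86 to -0.97). Members with a polyadenylation hexamer after the stop codon were at 428 and 418 CPM, a log2 ratio of -0.04 (-0.15 to 0.08). Of the 9 that passed the filter, 3 were at least 2-fold lower, and without Hist1h2bc the sum was at 303 and 217 CPM, a log2 ratio of -0.48 (-0.63 to -0.34). Members without one were at 748 and 423 CPM, a log2 ratio of -0.82 (-0.92 to -0.72).

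Hist1h3c held the largest part of the difference in H3, and without it H3 lay at 39.4 CPM in control cells against 12.2 CPM in mutant cells, a log2 ratio of -1.61 (-2.28 to -1.16). Hist1h3c was at 46.5 CPM in control and 1.90 CPM in mutant marked chondrocytes, a log2 ratio of -4.03 (-6.04 to -3.41), and was above 0 in 96 of 501 control cells (19.2%, 15.8% to 22.9%) and 5 of 332 mutant cells (1.51%, 0.491% to 3.48%). After thinning to 1000 UMIs a cell the shares were 3.47% of 490 cells and 0 of 320 cells, which allows a share of up to 0.938%. Of the control cells above 0, 81.2% held under 0.9 of an estimated UMI. Of the synovial lining cells without a globin value, which in the control held 349 CPM of members, 21.3% (11.9% to 33.7%) of 61 control cells and 1.23% of 81 mutant cells were above 0, so the control share in chondrocytes was not above that of this other class. After thinning it was 0 of 60 of these control cells, which allows a share of up to 5%. Median depths were 5876 UMIs in control and 8595 UMIs in mutant marked chondrocytes, and 5143 and 9486 UMIs in these synovial lining cells. Hist1h3b was at 15.9 and 0.583 CPM, the latter from 1.8 estimated UMIs, a log2 ratio of -3.41 (-7.70 to -2.68).

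The other members that were at least 2-fold lower in the mutant belonged to several families. Hist1h1d was at 28.5 and 4.95 CPM in these libraries, a log2 ratio of -2.31 (-3.43 to -1.73). Hist1h2br was at 18.8 and 4.55 CPM, Hist1h4h at 25.6 and 7.97 CPM and Hist2h2ac at 13.6 and 4.46 CPM. Hist1h1e, the most abundant linker histone of the control chondrocytes, was at 214 and 86.1 CPM, a log2 ratio of -1.31 (-1.53 to -1.11). Below a 2-fold difference, Hist1h2ap was at 266 and 195 CPM, with -0.45 (-0.60 to -0.30), Hist1h2ae at 39.7 and 25.9 CPM, Hist1h1b at 40.3 and 22.5 CPM and Hist1h4i at 11.6 and 7.13 CPM. Few cells carried some of these values. Without the 3 cells that held most of each gene's UMIs, Hist1h2ap was at 140.5 CPM in control and 72.8 CPM in mutant marked chondrocytes, Hist1h3c at 27.1 and 0.462 CPM and Hist1h1b at 17.5 and 5.3 CPM, so all 3 kept their direction.

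A smaller group was level or higher in the mutant. Hist1h2bc was at 125 CPM in control and 201 CPM in mutant marked chondrocytes, a log2 ratio of 0.68 (0.50 to 0.87), which made it the highest member in the mutant cells. It was above 0 in 47.7% of control cells (43.3% to 52.2%) and 53.0% of mutant cells (47.5% to 58.5%), and after thinning in 15.3% and 13.1%, so the order of these shares was not that of the CPM once depth was equal. In synovial lining cells without a globin value the unthinned shares were 29.5% and 46.9%. Hist2h2aa1 was at 63.4 and 77.3 CPM, a log2 ratio of 0.28 (0.01 to 0.57). The intervals of Hist1h1c, at 119 and 109 CPM, Hist1h2ac, at 15.9 and 18.0 CPM, and Hist1h4d, at 20.3 and 21.3 CPM, included 0. Without its 3 top cells Hist1h2bc was still higher in the mutant, at 118 and 177 CPM. The remaining members were under 10 CPM in both libraries.

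These marked chondrocytes were then split by whether Mki67 or Top2a, genes of dividing cells, was above 0. This held for 100 of 501 control cells (20%, 16.5% to 23.7%) and 23 of 332 mutant cells (6.93%, 4.44% to 10.21%), and after thinning for 5.1% of 490 and 1.25% of 320 cells. Of these cells, 63% of control and 60.9% of mutant ones held under 0.9 of an estimated UMI of the pair, and the share in the 61 control synovial lining cells without a globin value was 14.8% (6.98% to 26.2%). A value above 0 was therefore not read as a sign of division. The members were at 2975 CPM in control cells with either gene and 713 CPM in those with neither, and at 2665 and 661 CPM in the mutant library. Within the cells with either gene the log2 ratio of mutant to control was -0.16 (-0.28 to -0.03), and within the cells with neither it was -0.11 (-0.20 to -0.01). Cells with either gene held 51.8% of the member UMIs of control marked chondrocytes and 28.3% of those of mutant ones. The difference between the libraries was thus smaller within either kind of cell than over all marked chondrocytes. However, the split did not give like cells in both libraries. Among control cells, the osteoblast list summed to 1795 CPM with either gene and to 4163 CPM with neither. Among mutant cells it reached 25660 CPM with either gene, in 23 cells, against 6885 CPM with neither. With either gene, the chondrocyte list was higher and the synovial lining list lower in both libraries. How far this makeup enters the ratios by this split was not tested.

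Erythroid RNA was read beside this split. Mki67 was at 3579 CPM in control erythroid cells and at 51.2 CPM in control and 10.7 CPM in mutant marked chondrocytes. The erythroid markers summed to 215 and 121 CPM in these chondrocytes, of which Tfrc, the transferrin receptor that many dividing cells use, was 197 and 120.1 CPM. Slc4a1, Alas2, Epb42, Hemgn, Klf1 and Gata1 lay between 0.818 and 6.03 CPM in the control and between 0 and 0.316 CPM in the mutant, with Alas2, Epb42 and Gata1 at 0. By the split, the erythroid markers summed to 210 CPM in control cells with Mki67 or Top2a and 217 CPM in those with neither. In the mutant library they were at 114 and 122 CPM. Over all these chondrocytes Tfrc made up most of this list, and the markers without Tfrc were not summed by this split, so these sums say little of them. A list of 6 early erythroid genes, among them Myb, Gata1 and Car1, was at 47.5 and 13.5 CPM in the control library. In the mutant library this list was at 3.64 and 5.12 CPM. The part of free erythroid RNA in the histone values was not tested.

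Members differed in how far they went with Mki67 and Top2a. In the control library 28 members passed the filter and 23 were at least 2-fold higher in cells with either gene, against 4.65% of 8296 genes. In the mutant library it was 10 of 17 members, against 10.5% of 8380 genes. Of these called members, 17 of the control and 8 of the mutant were below 10 CPM in the cells with neither gene and passed the filter only through the other cells. Among members at 10 CPM or more in both kinds of cell, 6 of 11 and 2 of 8 were at least 2-fold higher. Hist1h2ap was at 1030.2 CPM in control cells with either gene and 69.4 CPM in those with neither, a log2 ratio of 3.87 (3.65 to 4.15), and at 1446 and 72.4 CPM in the mutant library, a ratio of 4.30 (4.07 to 4.57). Hist1h1b had ratios of 3.98 and 4.91 and Hist1h2ae of 3.73 and 3.39. In contrast, Hist1h2bc was at 132 and 123 CPM in the control and at 199.8 and 201 CPM in the mutant library, with ratios of 0.10 (-0.27 to 0.45) and -0.01 (-0.43 to 0.40). Hist1h1c had ratios of 0.65 and 0.76, Hist1h1e of 0.93 and 0.66, and Hist2h2aa1 of 0.75 and 0.59. Hist1h2ac had ratios of 0.72 and -0.02. Hist1h2bc, Hist1h1c, Hist1h2ac and Hist2h2aa1, which were level or higher in the mutant, were thus among the members with the smallest ratios. Hist1h4d, which was also level, was not in the control, where its ratio was 1.98 (1.29 to 2.82), and had a ratio of 0.25 (-1.08 to 1.43) in the mutant. Hist1h1e also had small ratios but was lower in the mutant in both kinds of cell, at 345 and 129.7 CPM in cells with either gene and 181 and 81.8 CPM in the others.

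**Figure D4:**
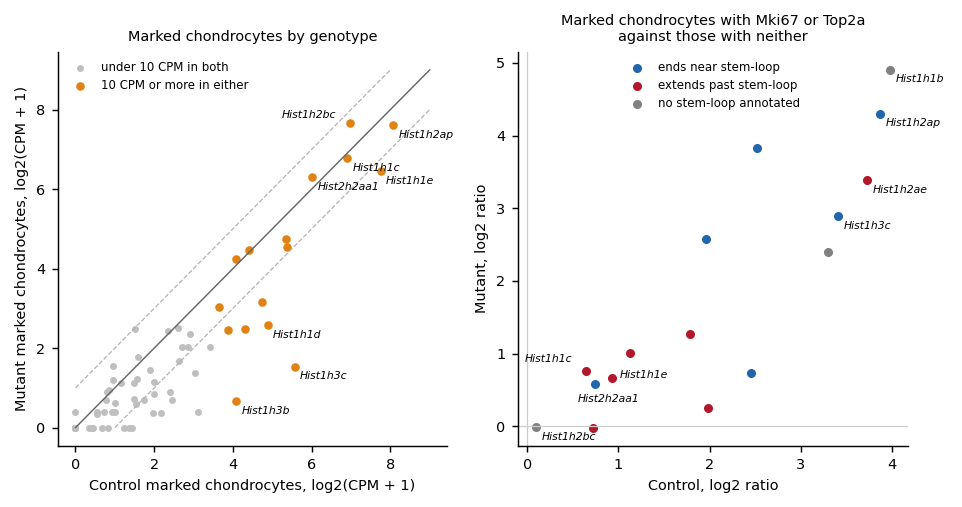
Left, level of each histone gene in marked chondrocytes of the control (x axis) and mutant (y axis) library, log2(CPM + 1), with a solid line of equality and dashed lines at a 2-fold difference. Right, log2 ratio of cells with Mki67 or Top2a to cells with neither, control (x axis) against mutant (y axis), for members that reached 10 CPM in either kind of cell in both libraries, coloured by the annotated end of the transcript. Hist1h2bc lies above equality on the left, at 125 and 201 CPM, and near 0 on both axes on the right, while Hist1h3c lies far below the dashed line, at 46.5 and 1.90 CPM.

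The lists that go with the histones did not all move like the members, whose log2 ratio was -0.48. The S-phase list summed to 599.7 CPM in control and 573 CPM in mutant marked chondrocytes, a log2 ratio of -0.06. Of its 15 genes past the filter, 1 was at least 2-fold lower, a share near the 6.63% of all genes. The G2/M list was at 1566 and 1100.2 CPM, a ratio of -0.51 that lay close to that of the members. Of its 30 genes past the filter, 14 were at least 2-fold lower, against 6.63% of all genes. Of these 14, only Mki67, Tmpo and G2e3 were at 10 CPM or more in both libraries. The rest were below 10 CPM in the mutant and passed the filter only through the control. The processing factors were at 229 and 208 CPM and the chaperones at 300 and 291 CPM. The replacement variants were higher in the mutant as a sum, at 1693 against 2780.4 CPM, a log2 ratio of 0.72. Most of this sum came from H3f3b and H3f3a. Of the 11 genes, 0 were at least 2-fold higher, against 4.57% of all genes, and 1 was at least 2-fold lower, against 6.63%. The lower one was Cenpa, at 18.9 and 6.78 CPM. H1f0, at 96.7 and 64.4 CPM, H2afj, H2afy2 and H2afy were also lower in the mutant, by less than 2-fold. H3f3b, a replacement H3 gene, was at 774 and 1490.3 CPM, H3f3a at 301 and 593 CPM and H2afz at 194 and 286 CPM. The sum of the replication-dependent H3 genes and these replacement H3 genes thus differed in opposite directions between these libraries. This does not describe each replication-dependent H3 gene, because only 2 of 12, Hist1h3c and Hist1h3b, passed the filter. Hist1h3e, at 2.03 CPM in control and 2.41 CPM in mutant cells, and Hist2h3c1, at 0.932 and 1.91 CPM, were not lower in the mutant. Their intervals included 0.

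Over all cells without a globin value, the summed members were lower in the mutant, but not once cells were thinned to equal depth. They were at 1863 CPM over 1190 control cells and 1219 CPM over 1227 mutant cells, a log2 ratio of -0.61 (-0.65 to -0.57). The sign turned, to a log2 ratio of 0.16, once 1000 UMIs were drawn from every cell and the 81 control and 178 mutant cells below that depth were dropped. As a mean over cells, with no thinning, it was -0.16, and with the classes given the same weights in both libraries -0.60. Some marker lists moved in the same direction as the sum and others did not. The erythroid list was at 170 CPM in control and 80.7 CPM in mutant cells, and the leukocyte list at 232 and 35.0 CPM, with S100a8 at 98.8 and 9.78 CPM and S100a9 at 121 and 11.3 CPM. The marrow stromal list went the other way, at 597 and 1229 CPM. Their part in the difference was not tested. The median log2 ratio of the 29 members that passed the filter was -0.04, beside -0.13 over all 8787 genes, so the sum was set by the most abundant members. Of these 29, 8 were at least 2-fold lower, 6 of them at 10 CPM or more in both libraries, against 3.29% of genes, and 1 was at least 2-fold higher, against 4.04%. Hist1h2ap was at 626 and 244 CPM, a log2 ratio of -1.36 (-1.44 to -1.28), and without it the sum had a ratio of -0.34. The others at least 2-fold lower were Hist1h3c, Hist1h2br, Hist1h2ad, Hist1h3b, Hist1h2bb, Hist1h1e and Hist1h2ae. Hist1h3e was at least 2-fold higher, at 13.2 CPM against 5.93 CPM in the control. Hist1h2bc had 109 CPM in control and 156 CPM in mutant cells, a log2 ratio of 0.51 (0.38 to 0.66).

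By class and with no thinning, the summed members were lower in the mutant in 6 of 7 classes with at least 10 cells without globin in each library. The log2 ratio was -0.47 (-0.55 to -0.40) in marked chondrocytes, -0.60 (-0.66 to -0.55) in unassigned cells, -1.14 (-1.38 to -0.90) in osteoblasts and -2.91 (-3.16 to -2.67) in marrow stromal cells. The intervals of tenocytes, -0.45 (-0.95 to 0.08), and synovial lining cells, -0.31 (-0.64 to 0.03), included 0. Mural cells were higher in the mutant, with 1.17 (0.72 to 1.62) from 37 mutant and 15 control cells. Without the 3 cells that held the most member UMIs in each library, the ratio was -0.94 in mural cells, -0.97 in marrow stromal cells and -0.49 in osteoblasts, so these values rested in part on at most 3 cells per library, and in mural cells the direction did. Once thinned, the ratio over all cells without a globin value was 0.16 and that of marked chondrocytes -0.68. The other classes were not thinned one by one. Median depths were 3143 UMIs in control and 1954 UMIs in mutant unassigned cells, and 2571 and 5778 UMIs in marrow stromal cells. Hist1h2bc was higher in the mutant in all 7 classes, by a log2 ratio from 0.12 in marrow stromal cells to 1.76 in synovial lining cells. Hist1h1e was lower in 6 of 7 classes, down to -3.82 in marrow stromal cells, and higher by 1.38 in mural cells. Hist1h1c went both ways, from -1.32 in marrow stromal cells to 1.44 in tenocytes. These single-gene values by class are given without intervals, and some rest on few cells, with 15 control mural cells and 23 mutant tenocytes. For Hist1h2bc, levels were 51.3 and 74.7 CPM in control and mutant mural cells and 18.5 and 35.0 CPM in tenocytes. After thinning, the share of marked chondrocytes above 0 for Hist1h2bc was 15.3% in control and 13.1% in mutant cells.

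**Figure D5:**
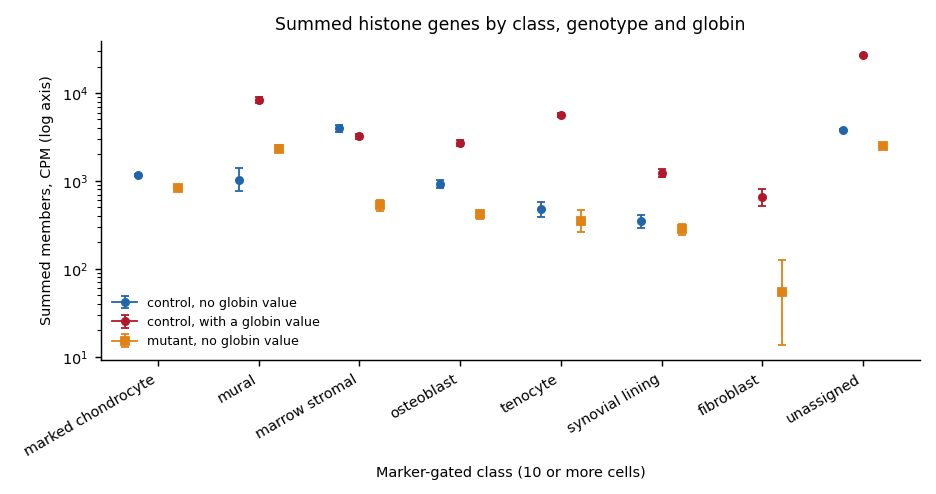
Summed histone genes per class on a log CPM axis, for control cells without (blue) and with (red) a globin value and mutant cells without one (orange squares), in classes of 10 or more cells. Bars are 95% Poisson intervals of the summed UMIs and cover counting error only. The orange square lies below the blue point in marked chondrocytes, at 840.0 against 1166 CPM, and above it in mural cells, at 2334 against 1037 CPM.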

How the data were processed

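Droplet 3′ RNA libraries, 1 per genotype, were analysed from 2 tables of cells. Per the study's methods, STAR 2.7.3a within Partek Flow placed the reads on mm10, UMI duplicates were collapsed, genes were counted on a Gencode release, a knee plot separated cells from empty droplets and SoupX took out ambient RNA. The authors deposited each gene as log2(CPM + 1) per cell. They also deposited an estimated count, the total of each cell, which SoupX leaves fractional. The deposited tables give mitochondrial and ribosomal reads as a percent of this total, and genes per cell as a deposited score. The tables are not limited to 5% mitochondrial counts, since 694 control and 492 mutant cells lie above it.

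Estimated UMIs were recovered as the linear CPM value times the cell's total over 1000000 and summed per class. The libraries held 23576400 (control) and 7452650 (mutant) estimated UMIs, to 6 digits. Log2 ratios used a pseudocount of 1 CPM, and a gene was counted at a log2 ratio of 1 or more with at least 10 CPM in either group. Intervals of ratios are exact binomial on rounded sums, those of levels Poisson and those of shares Clopper-Pearson, and they cover counting error only. Where no cell was above 0 after thinning, the share allowed is 3 over the number of cells and not a Clopper-Pearson limit. A cell went to the first class whose 2 marker genes were above 0, after the erythroid gate and the study's text mark. The members, lists, gates and tests were chosen with earlier results of these data known. Every member with at least 200 estimated UMIs was named, as were up to 4 genes per list with the largest and smallest ratios at 10 CPM or more and the 5 other genes best correlated with the members in erythroid cells. Other genes and the split by Mki67 or Top2a, the limit of 10000 CPM and the Gata1 gates were chosen after values were seen.

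Coordinates and transcript sequences are those of Gencode M21, another release than the authors used, and promoters those of RefSeq on GRCm38.p6. Python 3.11.15, numpy 2.4.6, scipy 1.17.1 and scanpy 1.11.5 (Scrublet, thinning seed 1) were used. On simulated counts for erythroid cells against marked chondrocytes, 100 of 100 genes changed 4-fold were called and 92.0% of 200 intervals held the true ratio. Alternatives were the pseudocount, scaling, denominator, cell filters, doublets, cell weighting, depth, gates and the cells with the most UMIs.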

Additional observations from a re-analysis of the deposited data

Results flagged for a closer look

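In mural cells without a globin value the summed histone genes, with no thinning, were higher in the mutant library, with a log2 ratio of 1.17, while the 6 other classes were lower. This was picked out because the direction was opposite to that of the other classes, and the difference between classes was not tested. Without the 3 cells with the most member UMIs in each library the value was -0.94.

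Cells outside the main comparisons also held high histone levels. The 442 control cells of the unassigned class with Gata1 and Klf1 were at 33929 CPM, and the 135 with Myb and Gata1 were at 29009 CPM. The 9 mutant cells of the erythroid gate were at 23390.3 CPM. These were picked out as signal outside the compared cells, and no difference was tested.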

How the results depend on the processing

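No paired analysis was possible because each genotype was 1 library, and for the same reason no replicate could be left out. The count of members at least 2-fold higher in erythroid cells stayed within 1.5 times of 56, from 41 (only members at 50 CPM or more, all 41 of them) to 58 (no filter, of 67), in all 15 alternatives. With Gata1 and Klf1 cells, or against marked chondrocytes with Mki67 or Top2a, it was 55, and the exception was Hist1h1c in both. The summed level in erythroid cells against marked chondrocytes kept its direction in 13 alternatives and stayed within the interval of 4.78 in 5. It was 4.59 when centred on the median gene, 4.93 as a mean over cells, 4.91 after thinning, 5.14 without the 3 cells with the most member UMIs in each class, 4.71 with at least 2 UMIs of both gate genes and 3.97 against all cells with Sox9 and Col2a1. Alternatives chosen after seeing the data gave 4.86 with Gata1 and Klf1 cells and 3.44 against the Mki67 or Top2a chondrocytes.

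The genotype ratio in cells without globin, -0.61, reversed to 0.16 after thinning. It was -0.49 when centred, -0.90 with at most 5% mitochondrial counts, -0.16 as a mean over cells, -0.55 without the 3 top cells and -3.28 in all cells outside the erythroid gate, and, chosen after seeing the data, -0.39 below 10000 CPM and -0.34 without Hist1h2ap. The ratio in marked chondrocytes, -0.48, stayed negative in all 13 alternatives. It was -0.32 when centred, -0.63 with at most 5% mitochondrial counts, -0.72 as a mean over cells, -0.68 after thinning and -1.47 in all cells with Sox9 and Col2a1, and, chosen after seeing the data, -0.17 below 10000 CPM and -0.11 without Mki67 and Top2a. Also chosen after seeing the data, leaving out Hist1h2bc reversed the H2B genes of marked chondrocytes from 0.32 to -1.37 and took the members with a hexamer from -0.04 to -0.48, and leaving out Hist1h3c took the H3 genes from -2.52 to -1.61. The cause of these shifts was not tested. Members under 10 CPM in marked chondrocytes rest on few UMIs, and the Scrublet alternative says little for the mutant library.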
